A study of Saccharomyces cerevisiae W303 with 30 samples.

Results

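A pair of budding yeast strains, neither yet depleted of any Mediator subunit, was set side by side: Med15/16-AID, in which Med15 and Med16 both carry an auxin-inducible degron, and Med15-AID, in which Med15 alone does. Their members were the libraries that the labels give as vehicle-treated cultures of these strains, 3 of Med15/16-AID and 3 of Med15-AID, or 6 of the 30 libraries of the series. Both strains are haploid MATa W303 Saccharomyces cerevisiae that express the plant F-box protein OsTIR1 from the GPD1 promoter at leu2 and carry MED15 fused to 3xHA-IAA7 with a HIS3MX6 marker. Med15/16-AID also carries MED16 fused to 3xV5-IAA7 with a kanMX6 marker. Each is 1 strain, so the MED16 tag cannot be told apart from any other difference that the 2 strains had come to carry. Cultures in rich glucose medium (YPD) at 30°C received DMSO at 1 in 2000 for 30 min. RNA made in a 6-min pulse of 4-thiouracil (4tU) was then purified and sequenced with strand kept (nsRNA-seq). The study used these cultures as the vehicle controls of auxin (3-IAA) depletion and also held Mot1/Med16-AID, Med16-AID, med16del and WT cells. Throughout, a log2 change is Med15/16-AID over Med15-AID.

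Mediator carries signals from DNA-bound activators to RNA polymerase II, and its tail module (Med2, Med3, Med5, Med15 and Med16) is where many activators bind; Med16 joins the tail to the rest of the complex. The yeast mitochondrial genome encodes a few subunits of the respiratory chain and of ATP synthase, and yeast growing on glucose can survive without all or part of it. Several nuclear pathways are known to respond to the state of mitochondria, among them the retrograde genes read by Rtg1 and Rtg3 and the drug efflux genes read by Pdr1 and Pdr3.

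Short promoter stretches of some genes described below are shown first because they carry the binding words of the activators that name the gene groups. They were read 5′ to 3′ on the strand of the gene from the RefSeq copy of the R64 assembly (sacCer3), with the word of interest, or its reverse complement, in capitals. TCCGCGGA is the palindromic word that Pdr1 and Pdr3 bind, GGTCAC is the word of Rtg1 and Rtg3, TGACTC that of Gcn4 and CACGTG that of Pho4, which other factors such as Cbf1 also bind.
PDR5 chrXV:619340-619549, plus strand: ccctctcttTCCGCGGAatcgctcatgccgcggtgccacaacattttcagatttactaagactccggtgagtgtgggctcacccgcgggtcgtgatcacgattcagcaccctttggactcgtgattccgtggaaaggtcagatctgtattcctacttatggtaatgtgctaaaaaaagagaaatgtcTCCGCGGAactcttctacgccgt
PDR15 chrIV:1278800-1278869, plus strand: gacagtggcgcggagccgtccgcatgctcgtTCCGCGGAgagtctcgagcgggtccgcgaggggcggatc
PDR3 chrII:217230-217299, plus strand: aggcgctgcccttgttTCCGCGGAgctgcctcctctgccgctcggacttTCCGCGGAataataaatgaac
ACO1 chrXII:737959-738018, minus strand: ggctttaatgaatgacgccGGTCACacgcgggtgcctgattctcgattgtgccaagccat
CIT2 chrIII:122619-122688, minus strand: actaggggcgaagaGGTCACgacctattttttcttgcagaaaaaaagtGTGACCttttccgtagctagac
ARG1 chrXV:218851-218960, plus strand: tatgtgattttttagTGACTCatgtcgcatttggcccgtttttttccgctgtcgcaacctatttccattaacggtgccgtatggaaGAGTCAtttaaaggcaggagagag
HIS4 chrIII:68514-68603, minus strand: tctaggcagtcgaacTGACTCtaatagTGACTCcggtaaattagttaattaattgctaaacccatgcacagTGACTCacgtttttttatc
PHO84 chrXIII:26191-26250, minus strand: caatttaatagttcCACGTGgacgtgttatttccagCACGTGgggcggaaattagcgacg
PDR5 and PDR3 each hold the Pdr word at 2 positions in these windows, HIS4 holds the Gcn4 word at 3, and PHO84 holds the Pho4 word at 2.

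The 3 Med15/16-AID libraries held 4537328, 4912697 and 5945863 sense counts on genes and the 3 Med15-AID libraries 4837891, 5273262 and 5262152. Reads that mapped to several places made up 49.1% to 52.0% of reads in Med15/16-AID and 43.9% to 46.1% in Med15-AID, and the 10 most counted genes held 3.72% to 4.17% and 4.54% to 4.70% of the sense counts. The files hold no counts of the S. pombe spike-in, so a change shared by all genes cannot be seen and every value is relative to the other genes. Levels are given as CPM, a gene's counts scaled to a common library total after edgeR's TMM correction, and they compare libraries, not genes of different length.

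The tagged genes themselves did not pass the test. MED16 had 161, 174 and 182 CPM in Med15/16-AID and 162, 180 and 171 CPM in Med15-AID, and MED15 had 164, 187 and 218 CPM against 179, 187 and 191 CPM. Both pairs of groups overlapped, with log2 changes of 0.02 (SE 0.06, adjusted p = 0.85) for MED16 and 0.04 (SE 0.08, adjusted p = 0.72) for MED15 in edgeR's quasi-likelihood test with Benjamini-Hochberg adjustment. Of the other 3 tail subunits, PGD1, which encodes Med3, was higher in Med15/16-AID (87.6, 85.1 and 89.3 CPM against 72.5, 70.1 and 69.0 CPM; 0.31, SE 0.07, adjusted p = 0.0011), NUT1, which encodes Med5, was slightly lower (-0.15, SE 0.06, adjusted p = 0.035), and MED2 did not pass (0.08). The NUT1 call was lost under several other settings of the fit. The a-mating-type label held in both strains: STE2, the receptor of a cells, averaged 1002 ± 32.1 CPM in Med15/16-AID and 921 ± 38.8 CPM in Med15-AID (SD, n = 3 each).

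Some genes beside the tagged loci and at marker loci passed the test, as did 47.7% of all genes tested. Next to MED16, LAP3, a cysteine aminopeptidase, had 253, 268 and 215 CPM in Med15/16-AID and 136, 149 and 135 CPM in Med15-AID (log2 change 0.80, adjusted p = 2.2e-09), and YTP1 had 52.4, 60.2 and 62.6 CPM against 92.9, 93.3 and 92.3 CPM (-0.66). Neither pair of groups overlapped. YNL234W was also lower (-0.49), while KEX2 (0.06) and BNI4 (-0.09) did not pass. Next to MED15, SPE2 (0.20) and GSH2 (0.24) were higher, DDR2 (-0.96) and LDS2 (-0.72) lower, the LDS2 call being lost with both strands counted and without replicate 2 of either strain, and AIM39 and RRT8 did not pass. At the marker loci HIS3 had 469, 437 and 397 CPM in Med15/16-AID and 187, 158 and 159 CPM in Med15-AID (1.37), LEU2 was at 7.88, 5.85 and 7.15 CPM against 1.56, 1.22 and 1.82 CPM (2.17), and LYS2 (0.96) and ADE2 (0.44) were higher, whereas CAN1, TRP1 and URA3 did not pass. HIS3 and LYS2 are also amino acid synthesis genes of the kind described below.

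Differences between the strains were widespread. Of 5763 genes tested, 2750 (47.7%) passed an adjusted p of 0.05 in edgeR's quasi-likelihood test, 1408 higher in Med15/16-AID (24.4%) and 1342 lower (23.3%). A change of at least 2-fold was seen for 126 genes higher (2.19%) and 91 lower (1.58%). The 3 values of Med15/16-AID lay wholly above those of Med15-AID for 1603 genes (27.8%) and wholly below for 1529 (26.5%). Across genes, log2 CPM correlated at 0.994 to 0.995 between libraries of a strain and at 0.961 to 0.965 between strains. The median log2 change was -0.00, and chromosome medians ran from -0.04 on chromosome XIII to 0.10 on chromosome VI. The 275 genes within 30 kb of a chromosome end had a median of -0.01.

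The sharpest difference was in the mitochondrial genome. The tables list 28 mitochondrial genes, of which 20 had at least 100 sense counts over the 30 libraries, and 13 of those 20 were all but uncounted in Med15-AID. Those 13 summed to 4604, 3960 and 6390 counts in the Med15/16-AID libraries, against 0, 1 and 0 counts in the Med15-AID libraries, and the 6 Med15-AID libraries with and without 3-IAA held 2 such counts in all. On the other strand they held 101 counts in the 6 Med15/16-AID libraries and 0 in the 6 Med15-AID libraries. The lowest of the 24 libraries from other strains or from Med15/16-AID held 1958 counts on these genes.

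The uncounted genes included AI1 and AI2, maturases encoded in introns of COX1, SCEI, the homing endonuclease I-SceI, and COX1, COX2 and COX3, the catalytic core of cytochrome oxidase. COX1 (MT, 13818 to 26701) had 69, 61 and 116 counts in Med15/16-AID and 0 in each Med15-AID library, which is at least 26.3-fold higher against a floor of 3 counts per library. COX2 (MT, 73758 to 74513) had 111, 121 and 143 counts against 0 in each (at least 40.8-fold), and COX3 (MT, 79213 to 80022) had 138, 134 and 172 counts against 0 in each (at least 48.4-fold). AI1, the most counted of the set, had 2380, 2054 and 3275 counts in Med15/16-AID and 0, 1 and 0 in Med15-AID, a ratio of 7556 with an exact 95% interval of 1356 to 298470 for counting error only. ATP6, a subunit of ATP synthase, had 101 counts in Med15/16-AID in all and 0 in Med15-AID (at least 10.9-fold). Each of COX1, COX2, COX3, AI1 and ATP6 had counts in every one of the 24 other libraries.

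The mitochondrial genes that Med15-AID did hold were higher there than in Med15/16-AID. OLI1 (MT, 46723 to 46953), which encodes the ring subunit of ATP synthase, had 279, 228 and 257 counts in Med15/16-AID and 1028, 1059 and 1047 in Med15-AID (log2 change -2.06, SE 0.09, adjusted p = 1.0e-14). COB (MT, 36540 to 43647), cytochrome b, had 40, 32 and 56 counts against 113, 112 and 99 (-1.37, SE 0.17, adjusted p = 3.5e-07), and VAR1 (MT, 48901 to 50097), a protein of the mitochondrial ribosome, had 4, 5 and 7 against 36, 33 and 26 (-2.57, SE 0.31). The groups did not overlap for any of these 3. The intron reading frames of COB moved the same way, with -0.81 for BI2 and -1.25 for BI4. Reads on intron frames that overlap COX1 or COB exons can be dropped as ambiguous, so single genes of these 2 loci are less certain than their sums.

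**Figure D1:**
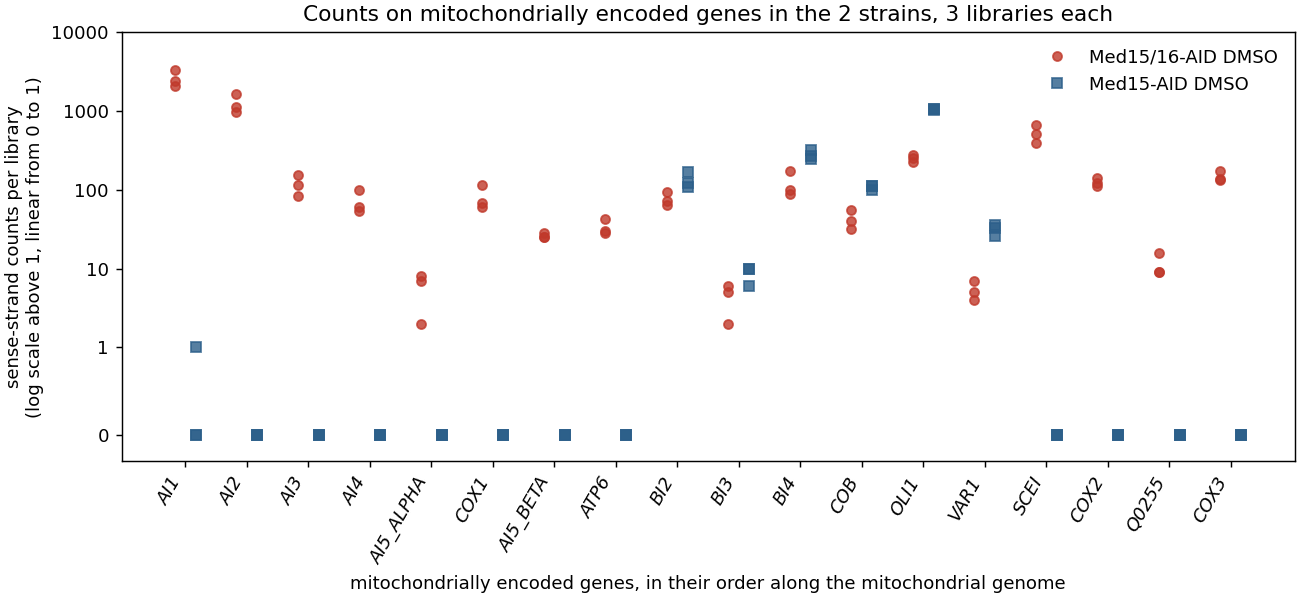
Sense counts (log scale above 1) of mitochondrial genes in each library of Med15/16-AID and Med15-AID in DMSO, in gene order along the mitochondrial genome. The genes of the COB locus, OLI1 and VAR1 were counted in both strains, and those to either side were at or near 0 in Med15-AID.

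By position the 2 classes were not interleaved. The annotated genes counted in Med15-AID lay between 36540 and 50097 of the mitochondrial sequence, and the uncounted ones lay at or before 29266 and from 61022 onward. Summed over the 7 counted genes with enough reads, Med15/16-AID held 101 ± 12.1 CPM and Med15-AID 331 ± 17.2 CPM (SD, n = 3 each), while the Mot1/Med16-AID, Med16-AID, med16del and WT means were 48.1, 58.2, 72.3 and 89.1 CPM. Over the 13 others Med15/16-AID held 984 ± 133 CPM and these groups 483, 658, 922 and 739 CPM. The 2 sets were split by their counts in the Med15-AID libraries, after these values were seen. The lack of counts on the 13 there thus follows from the split. Over the 7 counted genes Med15-AID was the highest of these groups. Its own counts also entered the choice of these 7, so this rank is only a description. RNA counts do not show whether the DNA was absent. In what follows, mitochondrial state, strain history and the MED16 tag cannot be told apart as sources of a difference.

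Genes of multidrug resistance were lower in Med15/16-AID, and PDR5, the main drug efflux pump, was the most changed of them. PDR5 had 495, 528 and 557 CPM in Med15/16-AID and 6044, 6124 and 6322 CPM in Med15-AID (log2 change -3.55, SE 0.07, adjusted p = 3.9e-21). PDR15, a close relative of PDR5, had 71.9, 73.4 and 69.2 CPM against 293, 313 and 327 CPM (-2.12, SE 0.06), and RSB1, which exports sphingoid bases, had 8.11, 12.3 and 14.6 CPM against 85.8, 95.7 and 97.5 CPM (-2.96, SE 0.12). For these 3 genes every Med15-AID library was several-fold above every Med15/16-AID library. That the groups did not overlap was required by the rule for the largest falls, and it held for 26.5% of all genes. PDR3, one of the activators, had 89.0, 99.9 and 109 CPM against 281, 289 and 284 CPM (-1.51, SE 0.06). Its partner PDR1 did not pass (0.13), though it did under some other settings of the fit. Reads from any stretch that PDR5 and PDR15 share would map to several places and were not counted.

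Of the 24 list genes tested, 13 were lower and 4 higher, against 23.3% and 24.4% of all genes, with a median of -0.25. RTA1 (-1.48), the weak-acid pump PDR12 (-0.67) and the pump SNQ2 (-0.51) were lower, whereas the transporters AZR1 (0.47) and QDR3 (0.38) and the regulator YRR1 (0.23) were higher, and FLR1 did not pass (0.08). The word TCCGCGGA was found on either strand in the 500 bases before the start codon of 34 of 5587 nuclear protein-coding genes (0.609%). It was found in 6 of the 81 such genes lower by at least 2-fold (7.41%), PDR5, PDR15, PDR3, BDH2, XBP1 and YHR140W, and in 0 of the 107 higher by at least 2-fold. In the list it was in 4 of the 13 lower genes (PDR5, PDR15, PDR3 and PDR16) and in 1 of the 4 higher (YRR1). These windows can run into a neighbouring gene, and the list is named for the factors that bind the word, so such shares are descriptions.

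In the citrate cycle, ACO1, IDH1 and IDH2, which act between citrate and 2-oxoglutarate, were lower in Med15/16-AID. ACO1, mitochondrial aconitase, had 581, 633 and 605 CPM in Med15/16-AID and 2100, 2365 and 2101 CPM in Med15-AID (log2 change -1.85, SE 0.07, adjusted p = 3.5e-16). IDH1 had 292, 317 and 279 CPM against 811, 955 and 832 CPM (-1.55), and IDH2, the other subunit of the NAD-dependent isocitrate dehydrogenase, had 319, 323 and 309 CPM against 959, 1085 and 951 CPM (-1.66). None of the 3 pairs of groups overlapped. The NADP-dependent isocitrate dehydrogenase IDP1 of mitochondria (457, 454 and 416 CPM against 186, 185 and 171 CPM; 1.29) went the other way. IDP2, its cytosolic form, was lower (-1.41). Over the 25 cycle genes, 8 were higher and 9 lower, against 24.4% and 23.3% of all genes, with a median of 0.06.

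The 6 targets of the retrograde regulators Rtg1 and Rtg3, a list added with these results in view, did not move as 1 group. ACO1, IDH1 and IDH2 were lower as above. CIT2, the peroxisomal citrate synthase by which the pathway is usually read, was only slightly lower in Med15/16-AID (642, 567 and 626 CPM against 683, 793 and 715 CPM; -0.26, adjusted p = 0.0038). DLD3, a lactate dehydrogenase, was higher (1472, 1363 and 1289 CPM against 1039, 1036 and 968 CPM; 0.44), as was PYC1, a pyruvate carboxylase (0.30). The word GGTCAC was in the 500 bases before 4 of these 6 genes, ACO1, IDH1, CIT2 and DLD3, and before 9.59% of all nuclear genes tested. Of 6 regulators, a list also added with these results in view, RTG2 (0.21) and RTG3 (0.28) were higher and none lower. Among all genes 24.4% were higher and 23.3% lower, so a list this short shows no direction.

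Nuclear genes of the respiratory chain were mostly higher in Med15/16-AID, 27 of 42 against 24.4% of all genes, with 2 lower (23.3% of all genes) and a median of 0.28. QCR6 of complex III (0.75) and COX9 of cytochrome oxidase (0.64) were among the higher genes, and NDE1, the external NADH dehydrogenase, was the larger of the falls (-1.19). HAP4, the limiting subunit of the activator of respiratory genes, was lower (-0.59).

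Amino acid synthesis genes formed the largest block of higher genes, led by arginine. ARG1, argininosuccinate synthetase, had 1124, 998 and 913 CPM in Med15/16-AID and 68.5, 66.9 and 56.2 CPM in Med15-AID (log2 change 3.99, SE 0.10, adjusted p = 2.3e-19). ARG4, the enzyme of the next step, had 1788, 1699 and 1611 CPM against 357, 378 and 345 CPM (2.24), and ARG3, ornithine carbamoyltransferase, had 63.8, 58.9 and 50.9 CPM against 11.1, 11.96 and 8.30 CPM (2.46). Every Med15/16-AID library lay above every Med15-AID library at these 3 genes. The rule for the largest rises required this, and it held for 27.8% of all genes. Of the 11 list genes, 10 rose and 0 fell, against 24.4% and 23.3% of all genes, with a median of 1.65. Others that rose included ARG7 (1.97), ORT1 (1.65), ARG56 (1.62), ARG8 (0.99), ARG2 (0.76) and CPA1 (0.47). The remaining gene, GCN4, the activator of amino acid synthesis, which is regulated mainly through its translation, had 817, 820 and 798 CPM against 855, 854 and 832 CPM (-0.06, adjusted p = 0.40).

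Of 59 genes for other amino acids, 49 were higher and 3 lower, against 24.4% and 23.3% of all genes, with a median of 0.51. HIS4, which catalyses several steps of histidine synthesis, had 1288, 1247 and 1176 CPM in Med15/16-AID and 237, 252 and 217 CPM in Med15-AID (2.39). SER3 for serine (1.90), LYS1 for lysine (1.42) and TRP3 for tryptophan (1.34) were higher, and SHM2 (-0.57), GLN1 (-0.18) and HIS6 (-0.22) were the 3 lower genes, the HIS6 call being lost with DESeq2 and under several other settings. The word TGACTC was found before 727 of 5587 genes (13.01%), before 46 of the 107 genes higher by at least 2-fold (43.0%) and before 5 of the 81 lower by at least 2-fold (6.17%). All 10 arginine genes that rose held it, as did 29 of the 49 other amino acid genes that rose (59.2%). Of all 59 other amino acid genes 37 held it (62.7%), the 3 lower ones included. Within that list the word therefore did not set apart the genes that rose.

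Sulfur assimilation was mixed, with 17 of 33 genes higher, 5 lower and a median of 0.19, beside 24.4% higher and 23.3% lower of all genes. MET16, which reduces activated sulfate, had 131, 121 and 115 CPM in Med15/16-AID and 33.6, 36.7 and 38.4 CPM in Med15-AID (1.75). HOM2 (1.64) and HOM3 (1.43), which make the shared precursor of methionine and threonine, were higher, and the S-adenosylmethionine synthetases SAM1 (-0.57) and SAM2 (-0.55) were lower. Read against the same shares, 16 of 36 vitamin and cofactor genes were higher and 2 lower (median 0.19). In that list BNA1, an enzyme of NAD synthesis from tryptophan, had 332, 339 and 310 CPM in Med15/16-AID and 62.5, 59.4 and 69.8 CPM in Med15-AID (2.35).

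**Figure D2:**
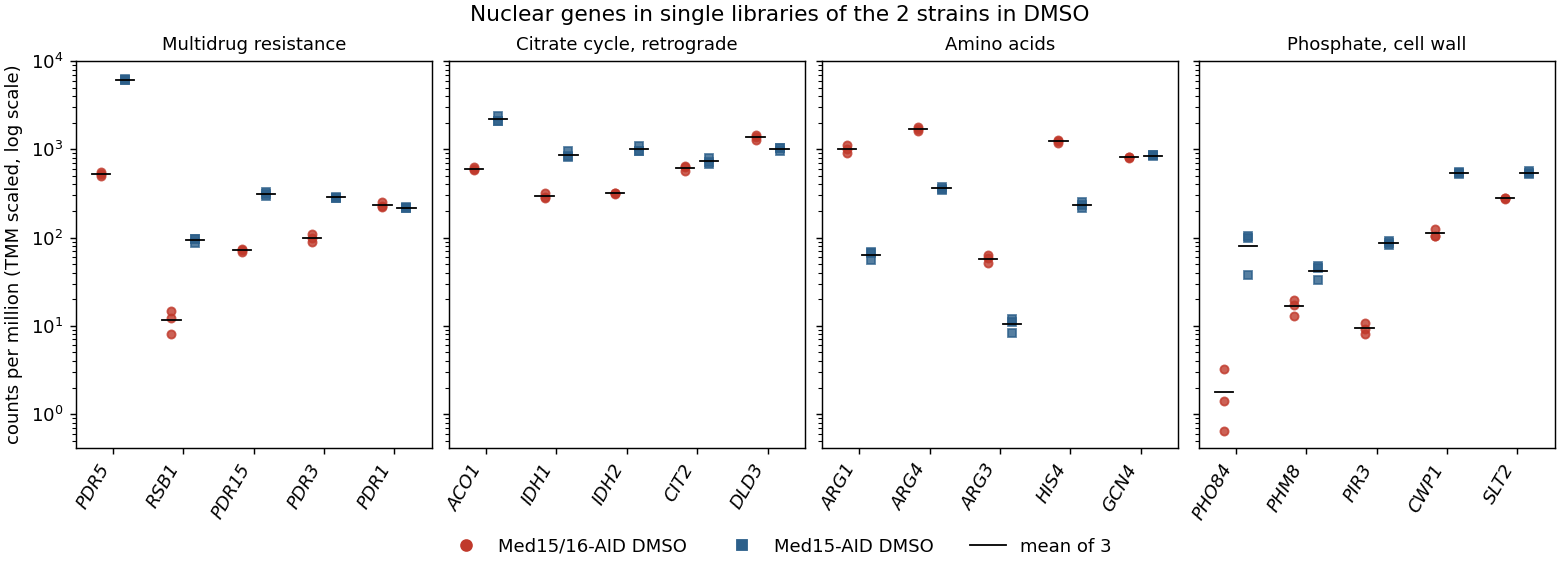
CPM, on a log axis, of nuclear genes in each of the 3 Med15/16-AID and 3 Med15-AID libraries. Bars are means of 3, and PDR5, ACO1 and PIR3 lie lower in all Med15/16-AID libraries than in any Med15-AID library, and ARG1, ARG4 and HIS4 lie higher.

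Catabolic and transport genes also stood far apart. CHA1, which breaks down serine and threonine, had 3.25, 2.38 and 2.44 CPM in Med15/16-AID and 89.4, 62.9 and 81.3 CPM in Med15-AID (log2 change -4.85, SE 0.19). PNS1 (-2.73), BAG7 (-2.70), YKL070W (-2.45), OSI1 (-2.21) and MCH5 (-2.07), a riboflavin transporter, were lower too. In the other direction, ARO5, listed under this symbol in the annotation, had 556, 514 and 457 CPM in Med15/16-AID and 73.4, 71.4 and 68.6 CPM in Med15-AID (2.84), and FRM2, a nitroreductase-like gene, had 277, 236 and 203 CPM against 38.2, 35.7 and 36.8 CPM (2.69). ADH5, an alcohol dehydrogenase (2.39), and TMT1, a methyltransferase (2.02), followed. Groups did not overlap at CHA1, ARO5 or FRM2, as the rule that named these genes required.

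The phosphate genes read by Pho4 were split. PHO84, the high-affinity phosphate transporter, had 3.25, 0.65 and 1.39 CPM in Med15/16-AID and 37.3, 98.1 and 105 CPM in Med15-AID (log2 change -5.55, SE 0.49, adjusted p = 2.4e-09). The Med15-AID library at 37.3 CPM was low within its strain, yet it lay far above every Med15/16-AID library. Of 20 genes, 7 were lower and 4 higher, against 23.3% and 24.4% of all genes, with a median of -0.20. PHM8 (-1.32) and GDE1 (-0.75) were lower, the vacuolar phosphatase PHO8 was higher (0.58), and PHO5, the secreted acid phosphatase, did not pass (-0.19). SPL2, an inhibitor of low-affinity phosphate uptake, had 1, 0 and 2 counts in Med15/16-AID and 8, 21 and 26 counts in Med15-AID, too few for a fold. The word CACGTG lay before 15 of the 20 genes, 6 of the 7 lower ones included, and before 6.28% of all genes.

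Hexose transporters and glucose sensors had 3 higher and 6 lower of 15, where all genes had 24.4% higher and 23.3% lower. HXT4 had 201, 160 and 204 CPM in Med15/16-AID and 48.0, 56.4 and 49.4 CPM in Med15-AID (1.88), while HXT3 (-0.82) and HXT1 (-0.72) were lower. The median of the list was -0.20 and crossed 0 when both strands were counted.

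Cell wall genes were lower in Med15/16-AID, 28 of 47 (23.3% of all genes) with 3 higher (24.4% of all genes) and a median of -0.30. PIR3, a glucan-linked wall protein, had 8.11, 9.10 and 10.8 CPM in Med15/16-AID and 82.2, 91.4 and 87.6 CPM in Med15-AID (log2 change -3.20), and CWP1, a mannoprotein, had 105, 126 and 104 CPM against 560, 535 and 520 CPM (-2.27). Neither gene's groups overlapped, as the rule for the largest falls required. SLT2, the kinase of the cell wall integrity pathway, had 276, 278 and 280 CPM against 524, 543 and 571 CPM (-0.97). RLM1 (-0.71), a transcription factor under Slt2, KDX1 (-2.09), PST1 (-1.27) and SED1 (-1.25) were lower as well. In a list of 15 genes of that pathway, which was added with these results in view, 13 were lower and none higher, with a median of -0.81. Members of that list were picked knowing some of these values, so its count is only a description.

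Protein quality control genes were higher. Of 32 heat shock chaperones 25 rose and 1 fell, against 24.4% and 23.3% of all genes, with a median of 0.42. The aggregate-sorting factors BTN2 (1.32) and HSP42 (1.28) and the Hsp70 SSA4 (1.01) rose, and HSP12, a membrane-protecting protein of the general stress response, was the gene that fell (-2.71). Of 37 proteasome genes 32 rose and 2 fell beside the same shares, with a median of 0.33, SEM1 (0.69), PUP1 (0.66) and PRE6 (0.62) among those that rose. RPN4, the activator of proteasome genes, was one of those that fell (-0.21), a call lost without Med15-AID DMSO replicate 3.

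The pheromone response list was higher too, 22 of 34 genes with 2 lower and a median of 0.30, against 24.4% and 23.3% of all genes. FUS1, needed for cell fusion and a usual reporter of the pathway, had 138, 137 and 124 CPM in Med15/16-AID and 48.0, 45.6 and 54.4 CPM in Med15-AID (1.43). AGA2, an agglutinin subunit of a cells (1.05), the activator TEC1 (0.93), the pheromone genes MFA1 (0.57) and MFA2 (0.59) and the activator STE12 (0.31) were higher. STE3, the receptor of alpha cells, was low in both strains (15.3, 12.3 and 17.96 CPM in Med15/16-AID and 9.78, 8.52 and 9.10 CPM in Med15-AID; 0.75).

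Translation and sterol genes were more often lower than higher, by small amounts. Of the ribosomal protein genes, 23 of 56 of the small subunit and 25 of 81 of the large subunit were lower, with 1 higher in each, against 23.3% lower and 24.4% higher among all genes, and the medians were -0.16 and -0.12. Ribosome biogenesis had 24 of 66 lower and 4 higher (median -0.10). Most paralogous ribosomal protein genes share sequence, so their single values are less certain. Of 28 ergosterol genes 17 were lower and 0 higher (median -0.18), with ERG3 (-0.68) and ERG4 (-0.64) the furthest down among those named. Of 10 COS genes, a near-identical family at chromosome ends, 7 were lower (median -0.41). MOT1, the ATPase that removes TBP from DNA, was lower in Med15/16-AID (-0.82) although it is untagged in both strains.

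**Figure D3:**
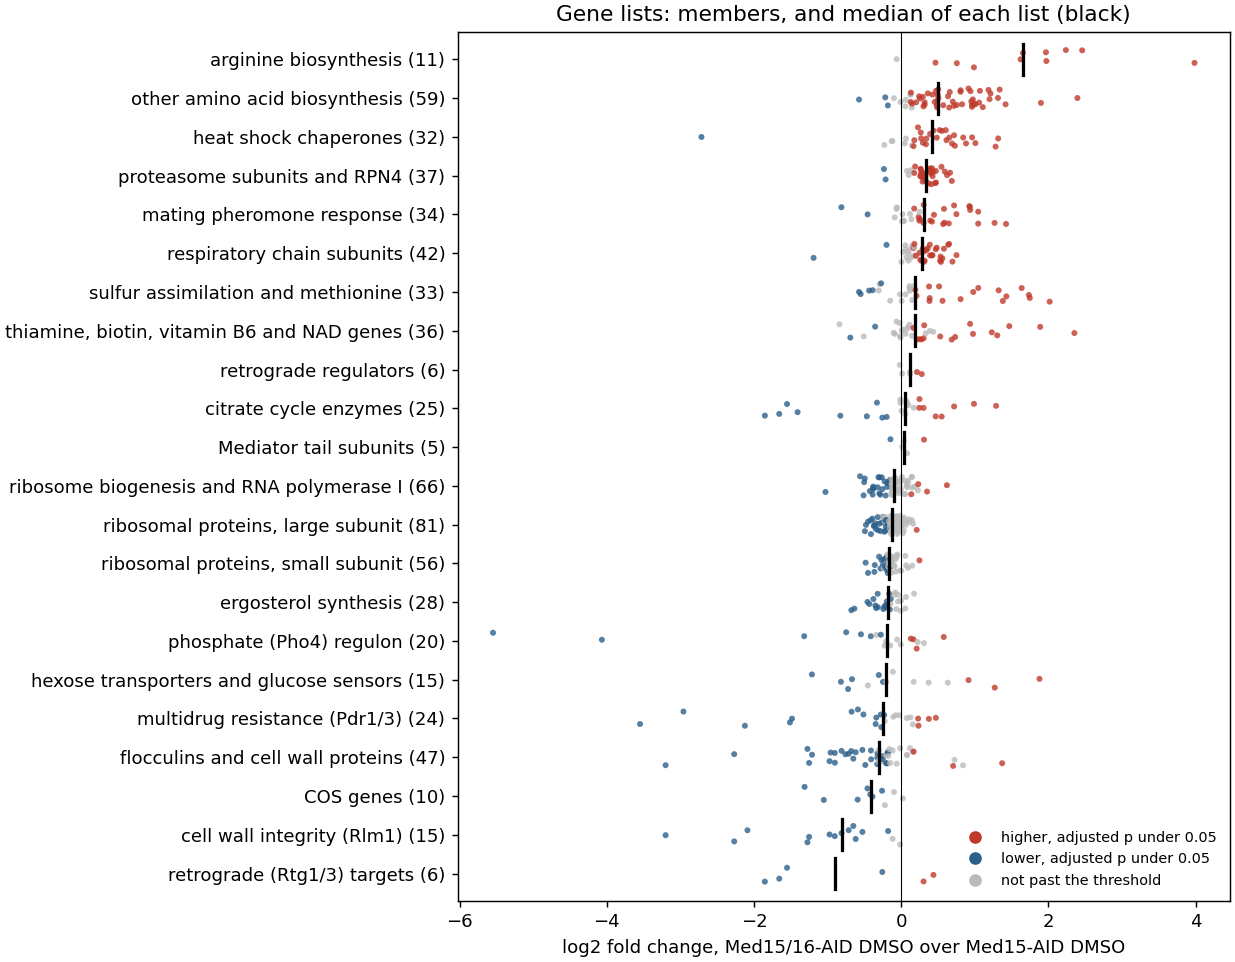
Log2 change (Med15/16-AID over Med15-AID, DMSO) of every tested gene of each list, with the list medians. Arginine synthesis sits highest with a median of 1.65, and the retrograde target (-0.90) and cell wall integrity (-0.81) lists sit lowest. These 2 lowest lists were added with the results in view, so their place is only a description.

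The same strains treated with 0.5 mM 3-IAA were compared in 6 further libraries. These shared the fit's scaling, filter and estimate of the spread with the DMSO libraries. As 3-IAA removes the tagged proteins, the strains then lack different sets of subunits. The comparison is therefore not a repeat of that in DMSO, and the part played by the depletion was not tested. In 3-IAA 2786 of 5763 genes passed (48.3%), 1458 higher (25.3%) and 1328 lower (23.0%). Of the 2750 genes that differed in DMSO, 2715 (98.7%, against 86.4% of all genes) had the same direction in 3-IAA and 2229 passed there in that direction, which is 81.1% of the DMSO calls and 80.0% of the 3-IAA calls. 1 gene passed in opposite directions. The log2 changes of 5744 nuclear genes correlated at r = 0.89 (Spearman's rho 0.88) across genes, which are not independent and share strain, run and library preparation. Of the 217 genes with at least a 2-fold change in DMSO, 199 passed in the same direction in 3-IAA. By list, arginine synthesis again had 10 genes higher and 0 lower (median 1.13), multidrug resistance 3 higher and 12 lower, heat shock chaperones 23 higher and 1 lower, and proteasome genes 31 higher and 1 lower. Sulfur assimilation had more genes higher than in DMSO, 21 with 1 lower (median 0.60), and MET6, methionine synthase, had a log2 change of 0.94 in 3-IAA and 0.39 in DMSO.

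For some genes the strain difference was smaller after depletion. The test of the difference between treatments, an interaction term in the same fit, called 40 genes (0.694%). For 35 of them the change was larger in DMSO. The strains lost different sets of subunits in 3-IAA, and the part this played in the term was not tested. PDR15 had log2 changes of -2.12 in DMSO and -1.13 in 3-IAA (difference -0.99, SE 0.09, adjusted p = 2.5e-07), and PDR5 had -3.55 and -2.68 (difference -0.87, SE 0.09, adjusted p = 8.7e-06). ARG56 had 1.62 and 0.81 (difference 0.82, SE 0.09, adjusted p = 1.2e-05), and IDH2 had -1.66 and -0.93 (difference -0.73, SE 0.09, adjusted p = 8.3e-05). DLD3 was higher in Med15/16-AID in DMSO (0.44) and lower in 3-IAA (-0.22). PDR5 still averaged 277 CPM in Med15/16-AID and 1773 CPM in Med15-AID after 3-IAA.

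**Figure D4:**
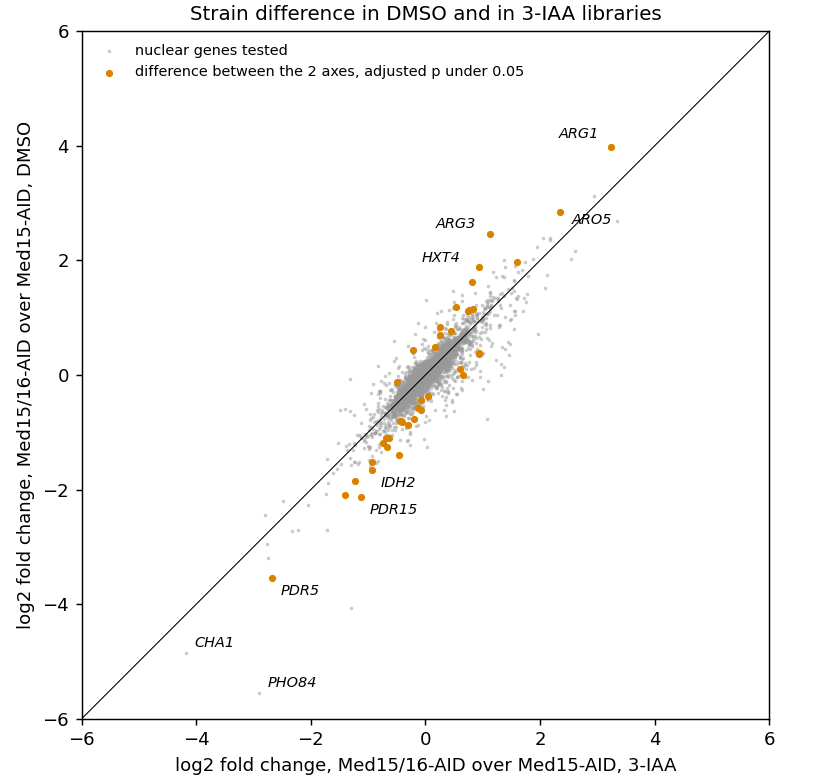
Log2 change (Med15/16-AID over Med15-AID) of each nuclear gene in DMSO on the y axis and in 3-IAA on the x axis, with genes past the interaction test in orange. The cloud follows the diagonal with r = 0.89, and PDR5, PDR15, IDH2 and ARG3 lie nearer to 0 in 3-IAA.

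The levels in the other groups that received DMSO or no treatment show which of the 2 strains stood apart at each gene. Among these groups med16del lacks MED16, so it is not a reference for intact Mediator. Levels were scaled within each sequencing run. The Med16-AID, med16del and WT libraries came from another run, so their values are set beside the others without a test. PDR5 averaged 511 CPM in Med15/16-AID, 5985 in Med15-AID and 1427 in Mot1/Med16-AID of the same run, and 1963, 478 and 1755 CPM in Med16-AID, med16del and WT. Med15-AID was the highest of these 6 groups. Med15/16-AID lay near med16del and below Mot1/Med16-AID, Med16-AID and WT, so both strains stood away from those 3 groups. PDR15 was at 69.4, 302 and 77.6 CPM in the first run and at 49.3, 53.0 and 62.5 CPM in the other, so there Med15-AID alone was high. Med15-AID was also the highest group at ACO1 (589, 2125 and 620 CPM, then 459, 539 and 711 CPM), IDH1 and IDH2.

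At the arginine genes the low group was not always Med15-AID alone. ARG1 averaged 982, 62.0 and 793 CPM in Med15/16-AID, Med15-AID and Mot1/Med16-AID, and 104, 610 and 693 CPM in Med16-AID, med16del and WT. The med16del libraries were spread widely at ARG1, at 452, 452 and 925 CPM. HIS4 averaged 1201, 228 and 1401 CPM in the first 3 groups and 467, 305 and 671 CPM in the others. Med15-AID was thus the lowest group at both genes, with Med16-AID near it at ARG1 and med16del near it at HIS4. PHO84 averaged 1.71, 77.9 and 191 CPM and then 997, 27.2 and 709 CPM, and Med15/16-AID was the lowest of all 6 groups. CHA1 (2.61, 75.6 and 17.01 CPM, then 4.27, 12.4 and 14.6 CPM) was high in Med15-AID alone.

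**Figure D5:**
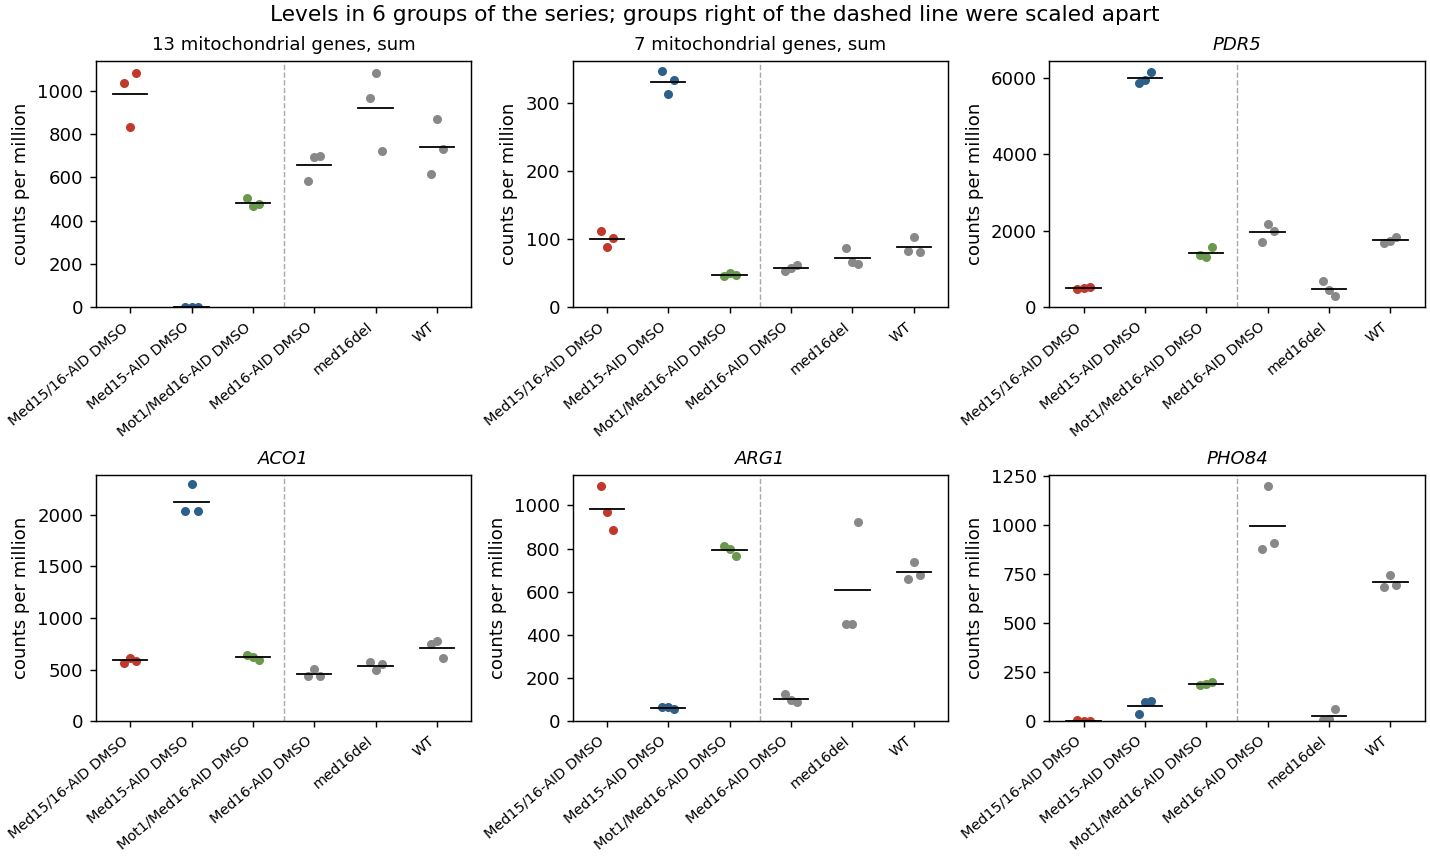
CPM on a linear axis, scaled within each run (the dashed line parts the runs), in each DMSO or untreated library of 6 strains for the summed mitochondrial sets, PDR5, ACO1, ARG1 and PHO84, with group means as bars. Med15-AID stands apart at ACO1 and the mitochondrial sums, whose sets were split by its own counts. At PDR5 Med15-AID is highest, and Med15/16-AID and med16del are lowest. Med15-AID is lowest at ARG1 beside Med16-AID, and PHO84 is lowest in Med15/16-AID.

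The changes in cells without MED16 were then set beside the strain difference. In the other run, med16del and WT differed at 999 of 5710 genes (17.5%), 455 higher (7.97%) and 544 lower (9.53%), with MED16 at 2.88 CPM in med16del and 202 CPM in WT. Across 5661 genes tested in both runs, the log2 changes of med16del over WT and of Med15/16-AID over Med15-AID correlated at r = 0.045 (Spearman's rho 0.026). Of the 188 genes at least 2-fold apart between the degron strains and tested there, 86 (45.7%) had the same sign in med16del over WT, 32 passed in that direction and 49 in the opposite one. Over all genes the share with the same sign was 50.8%. For DMSO-treated Med16-AID over untreated WT the sign was the same at 80 of the 188 genes (42.6%) but at 59.9% of all genes (Spearman's rho 0.21). The libraries of these comparisons are different ones, but gene length and base composition are shared. By list, med16del had 38 of 42 respiratory chain genes higher and 0 lower than WT, where Med15/16-AID had 27 higher and 2 lower than Med15-AID. For sulfur assimilation med16del had 0 of 33 higher and 27 lower than WT, where Med15/16-AID had 17 higher and 5 lower, and for arginine synthesis it had 2 of 11 higher and 6 lower.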

How the data were processed

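Strand-specific libraries of 4tU-labelled RNA were made with a stranded total RNA kit after Terminator exonuclease digestion, which removes RNA with a 5′ monophosphate. The authors mapped paired reads to sacCer3 and to the S. pombe genome with STAR 2.6.1a and deposited raw counts per gene for each library, of which the sense-strand counts of 6692 genes were used; reads that mapped to several places were not counted. The methods name DESeq2 with size factors from the S. pombe spike-in; those factors were not used here.

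The fit took the 12 libraries of both strains (DMSO and 3-IAA, 3 each), with the 4 groups as the only factor, TMM scaling, filterByExpr and the quasi-likelihood test of edgeR 4.0.16 (R 4.3.3), Benjamini-Hochberg adjustment over 5763 genes and a threshold of 0.05. CPM was TMM scaled over these 12 libraries, and over the 18 libraries of the run (or the 12 of the other run) where levels of other strains or sums of mitochondrial genes are given. Replicates are separate samples of 1 strain by the labels, so p-values measure the spread between cultures and not between strain isolates. Within the DMSO libraries of each strain, no files held the same library, as counts of every pair of replicates differed by more than sampling noise. Pairs in other groups were not checked in this way. Intervals of count ratios are exact binomial ones at 95% and cover counting error only.

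Named genes were the tagged and tail genes, genes within 5 kb of MED16 or MED15, marker loci, the 12 largest rises and 12 largest falls without overlap and with a mean of at least 50 counts in the higher group, up to 4 called members of each list with those needed to account for it, genes the study names, and the 4 genes of the largest interaction. As 8 of the 12 largest rises were mitochondrial, the 12 largest among nuclear genes were added, as were the genes beside MED15 and lists of retrograde and cell wall integrity genes. The members and gene lists were chosen with earlier results of these data known. Gene symbols came from the RefSeq annotation, which matched 6008 of the 6692 IDs. Other scalings, filters, libraries, strands, a block on replicate number and DESeq2 1.42.0 were tried. The fit was tested on simulated data. Some members of the lists are not reported here by name.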

Additional observations from a re-analysis of the deposited data

Results flagged for a closer look

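The strain difference in DMSO and that in 3-IAA differed for 40 genes in edgeR's interaction test. The differences (DMSO minus 3-IAA) were -0.99 for PDR15, -0.87 for PDR5, 0.82 for ARG56 and -0.73 for IDH2 on the log2 scale, and each was smaller in size in the 3-IAA libraries. Without Med15-AID DMSO replicate 3 the count was 24, and without Med15-AID 3-IAA replicate 1 it was 23.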

How the results depend on the processing

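The 2750 genes that differed in DMSO numbered between 2428 and 2754 under the other scalings, filters, library sets, strand setting and DESeq2, and between 2333 and 2653 with 1 library left out. Genes at least 2-fold higher numbered 124 to 137 and those lower 81 to 106 with 1 library left out, and the 3-IAA count ran from 2406 to 2729. The 2-fold counts moved further under other settings. A filter of at least 10 counts in every DMSO library gave 92 higher and 71 lower. Counting both strands gave 104 and 65, and no filter beyond a count above 0 gave 138 and 100. The interaction count was the least stable, at 23 to 48, with 24 without Med15-AID DMSO replicate 3 and 23 without Med15-AID 3-IAA replicate 1. With only library totals as scaling, 57.3% of calls were higher against 51.2% with TMM. Without the mitochondrial genes, a setting added after seeing the data, 2734 genes differed.

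No named gene that passed the test in DMSO changed direction in any setting tried. Changes of sign in named genes that did not pass, such as MED15 and MED16, were not counted. NUT1, HIS6, PHO80, PDR10, LDS2, RPN4, SUL2, MTH1 and NCB2 lost their call in at least 1 setting, and SUL2 had a log2 change of 0.05 when both strands were counted. The median of the hexose list was 0.011 with both strands counted. That of the citrate cycle list ran from -0.021 to 0.094 with 1 library left out and was below 0 without Med15/16-AID DMSO replicate 2. The cause was not tested.

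Replicate numbers did not pair the libraries: the deviations of same-numbered DMSO libraries of the strains correlated at 0.12, -0.06 and 0.15. A block on these numbers gave 2711 genes in DMSO, 2747 in 3-IAA and 39 in the interaction, so the pairing moved no count by over 1.5 times. Depth limits the lowest genes: below a few counts per library, as for SPL2 in Med15/16-AID or the 13 mitochondrial genes in Med15-AID, only a bound or a wide ratio can be given.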
